A study of Mus musculus with 2 samples.

Results

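The nuclear genes for subunits of oxidative phosphorylation were compared between regulatory T cells (Tregs) of DNR mice and of WT mice. Members were chosen by gene symbol alone: Cyc1, Cycs, Sdha to Sdhd, and symbols that begin with Ndufa, Ndufb, Ndufc, Ndufs or Ndufv and a digit, or with Uqcr, Cox4 to Cox8 or Atp5. This gave 169 of 45037 probe sets and 83 of 18193 genes, each probe set being assigned to exactly 1 gene by the platform annotation. Another 9 probe sets are assigned to several genes that include such a symbol and are not members, so Ndufa11 and Ndufs6 have none and Ndufb4 has only a dim one. The DNR array holds RNA of splenic CD4+Foxp3+ Tregs from 10-week-old C57BL/6 mice with the receptor that DNR stands for, a dominant negative TGF-beta receptor II, which blocks the cells' response to TGF-beta, a cytokine that restrains T cells. The WT array holds the same population from wild-type C57BL/6 mice of that age. There was 1 Affymetrix array per genotype. The labels do not state the number or pooling of mice behind an RNA, the promoter that drives the receptor, or how Foxp3 was detected. The cells of both groups came from naive mice. The sorting protocol deposited with the WT sample names DNR mice as the source of the cells, while its genotype label says wild type; the genotype label was followed.

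Oxidative phosphorylation couples the oxidation of NADH and succinate to the synthesis of ATP in the inner mitochondrial membrane. Complex I (NADH dehydrogenase) and complex II (succinate dehydrogenase) pass electrons to ubiquinone, complex III passes them to cytochrome c, and complex IV (cytochrome c oxidase) reduces oxygen. Complex V, the ATP synthase, uses the proton gradient that complexes I, III and IV build. Most subunits are encoded in the nucleus and a few core subunits in mitochondrial DNA. Resting T cells and Tregs are known to rely on this pathway, while dividing effector T cells also raise glycolysis.

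For each gene the brightest probe set, by mean signal, was used, and differences are given as the log2 ratio of the DNR over the WT signal. Values under a floor of 110.9, the higher of the arrays' median signals, were set to it, and a gene was called measured if at least 1 array lay above the floor. With 1 array per genotype no test can be made, so sizes are described without p-values or errors. The only spread the files can give is the disagreement between probe sets of a gene. For 42 member genes with 2 or more usable probe sets (above the floor on each array), a single log2 ratio had a robust SD of 0.228. For 1098 genes of the whole array with probe sets above 1000 it was 0.231. Over 3968 genes with usable probe sets of any brightness it was 0.393. This spread holds no variation between mice, sorts or hybridisations. Signals also depend on how well each probe set binds, so no gene's level is set against another's.

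The labelled cell type was checked on its markers. Foxp3, the defining transcription factor of Tregs, had a signal of 4550 on the DNR and 3754 on the WT array, and all 5 Treg and all 5 T cell markers with a probe set were above the floor on both. Summed signals on the DNR and WT arrays were 1538 and 1155 for B cell markers (4 of 6 measured) and 1181 and 1051 for CD8 T and NK cell markers (5 of 5). They were 384 and 245 for dendritic cell markers (2 of 5) and 150 and 109 for erythroid markers (1 of 4). Macrophage and monocyte markers were above the floor for 7 of 9 genes on each array and lower in DNR Tregs for all 7, with a summed signal of 3540 on the DNR and 4904 on the WT array. Of 7 neutrophil markers, 3 were above the floor on the DNR and 1 on the WT array, with summed signals of 1253 and 451. Of the cell cycle genes 15 were measured, and the DNR signal was higher for 14 and by 2-fold or more for 11. The 3′ over 5′ signal ratio, which grows as RNA is degraded or labelled incompletely, was 6.31 on the DNR and 4.98 on the WT array for beta-actin, and 2.28 and 2.07 for Gapdh. The 18 probe sets of bacterial hybridisation spike-ins had a 1.95-fold brighter DNR signal at their median. These values move with the genotype, and their part in the differences below was not tested. In RNA of a sorted population, fewer cells that express a gene and less RNA per cell cannot be told apart.

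Each subunit's signal was similar on the arrays for most genes, with 73 of 77 under 1.5-fold apart. Of the 83 genes, 77 were measured, 76 of them above the floor on both arrays and 72 above 1000 on both. The 6 that were not measured were Ndufa4l2, Ndufb4, Cox6b2, Cox7a1, Cox7b2 and Cox8b. Of the 77, 0 were at least 2-fold higher in DNR Tregs and 1 was at least 2-fold lower, beside 4% and 2.93% of the 11927 measured genes. At least 1.5-fold, 3 were higher and 1 lower, beside 12.8% and 9.85% of all measured genes. At least 1.2-fold, 19 were higher and 6 lower, beside 29% and 25.8%. Among the 72 members above 1000 on both arrays, 2 were at least 1.5-fold higher and 0 lower, beside 3.17% and 3.74% of the 4067 genes in that range, and 0 were at least 2-fold different in either direction, beside 0.664% and 0.615%. At 1.5-fold and 2-fold the member counts thus lie near or below the background. At 1.2-fold they lie below the shares of all measured genes, which are mostly dimmer. The median DNR signal was 558 over those genes and 6976 over the members. No 1.2-fold share was computed for genes above 1000. The measured subunit genes had a median log2 ratio of 0.08, a 1.06-fold higher signal in DNR Tregs, and that of all measured genes was 0.01.

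By direction alone, 49 of the 77 members were higher in DNR Tregs and 28 lower, which is 63.6% higher beside 51.4% higher and 48.6% lower among all measured genes. Among the 72 above 1000 on both arrays 47 were higher and 25 lower, beside 44.8% and 55.2% of the 4067 genes. Past the 0.228 spread between member probe sets, 24 of the 77 were higher and 7 lower, beside 31.6% and 28.4% of all measured genes. This cut is under the spread of 0.393 over probe sets of any brightness, so it is loose for dim genes. Of the 72 above 1000 on both arrays, 22 were higher and 5 lower past 0.228, beside 18.9% and 25% of the 4067 genes. The share of members that were higher differed over the range of signal. With a mean signal of at least 10000, 20 of 25 members and 55.1% of 370 other genes were higher. Between 5000 and 10000 it was 15 of 26 members and 49.3% of 499 other genes. Between 1000 and 5000 it was 12 of 21 members and 42.4% of 3422 other genes. Under 1000 it was 1 of 4 members and 48.2% of 4914 other genes. Across the 76 members above the floor on both arrays the log2 ratio correlated with the log2 mean signal with r = 0.38 (Spearman 0.28). Across all 9281 genes above the floor on both arrays r was -0.02. These are descriptions across genes, which share the arrays and are not replicates.

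**Figure D1:**
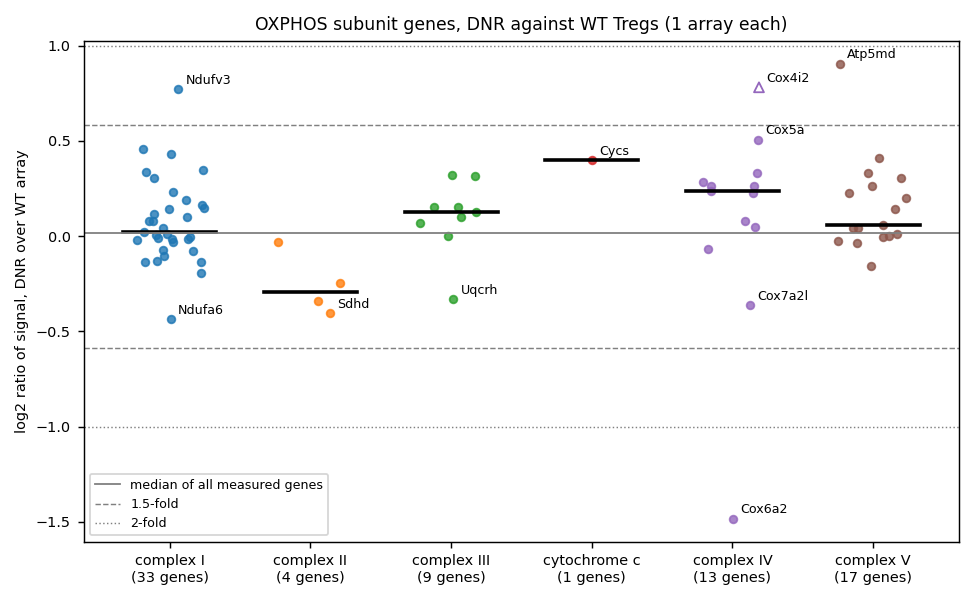
Log2 ratio of the DNR over the WT signal for each measured subunit gene (points; an open triangle is a lower bound), by respiratory complex, with the median of each complex as a black bar and the median of all measured genes, 0.01, as a grey line. Complex II lies below 0 for all 4 genes, complex IV has a median of 0.24, and only Cox6a2 passes 2-fold.

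To show what the members share beside their function, the window from 250 bases before to 50 bases after each gene's start in RefSeq (GRCm38.p6) was searched on both strands for letters bound by factors known for respiratory genes. An entry was found for 67 of the 83 genes. The palindromic motif of nuclear respiratory factor 1 (NRF1), with any base allowed at its inner position, was present for 15 of the 67 member genes (22.4%) and for 5.15% of 26958 other genes, or in 4.6% of all 32851 windows. The letters AAGATGGCG, bound by YY1, were present for 6 of 67 members (8.96%) and in 1.4% of all windows. CCGGAAGT, bound by ETS factors such as GABP, was present for 5 of 67 (7.46%) and in 3.89% of all windows. TCAAGGTCA, bound by oestrogen-related receptors, was present for 2 of 67 (2.99%) and in 0.423% of all windows. The searched motifs do not overlap each other in the stretches printed here. A match is a description of letters and not a site in use. The measured members with the NRF1 motif had a median log2 ratio of 0.05 (14 genes, 10 higher and 4 lower), and those without had 0.09 (48 genes, 29 higher and 19 lower). The 250 bases before the start are shown for some members, 5′ to 3′ on the strand of the gene, with matched letters in capitals. Among the widely expressed complex IV subunits with an entry, only Cox6a1 held the NRF1 motif in the searched window. Cox5a, Cox5b, Cox6b1, Cox7a2, Cox7c and Cox8a did not hold it, nor did Cycs. Cox6a1 (complex IV, chr5:115348959-115349208, minus strand) holds the NRF1 motif at 162 and 117 bases before the start, and Sdha (complex II, chr13:74350241-74350490, minus strand) holds them at 98, 55 and 10. Uqcrh (complex III, chr4:116075071-116075320, minus strand) holds the ETS letters, read on the other strand, at 11. Ndufv3 (chr17:31519865-31520114, plus strand) and Atp5md (chr19:47090648-47090897, minus strand), the subunit genes above 1000 on both arrays that differed most, hold none of the 4 in this stretch.
Cox6a1: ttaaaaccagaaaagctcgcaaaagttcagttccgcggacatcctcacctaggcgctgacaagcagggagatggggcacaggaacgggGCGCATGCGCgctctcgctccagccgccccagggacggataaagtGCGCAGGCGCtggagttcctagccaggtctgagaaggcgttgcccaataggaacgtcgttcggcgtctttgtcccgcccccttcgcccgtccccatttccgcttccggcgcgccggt
Sdha: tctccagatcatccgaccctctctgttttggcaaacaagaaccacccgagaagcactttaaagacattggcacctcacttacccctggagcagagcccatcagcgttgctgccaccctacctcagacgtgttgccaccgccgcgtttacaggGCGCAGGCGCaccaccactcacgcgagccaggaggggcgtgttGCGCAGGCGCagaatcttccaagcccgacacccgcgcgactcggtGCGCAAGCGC
Uqcrh: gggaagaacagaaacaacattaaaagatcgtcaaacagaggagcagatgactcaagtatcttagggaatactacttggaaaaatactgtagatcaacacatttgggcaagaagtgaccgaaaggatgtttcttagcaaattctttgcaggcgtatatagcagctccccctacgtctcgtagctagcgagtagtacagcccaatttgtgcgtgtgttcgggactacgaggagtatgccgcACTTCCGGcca
Ndufv3: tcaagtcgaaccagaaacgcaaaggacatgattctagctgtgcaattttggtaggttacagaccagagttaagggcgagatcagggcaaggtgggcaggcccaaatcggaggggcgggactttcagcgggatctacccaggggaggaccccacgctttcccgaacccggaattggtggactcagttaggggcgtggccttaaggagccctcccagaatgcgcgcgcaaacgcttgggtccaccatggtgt
Atp5md: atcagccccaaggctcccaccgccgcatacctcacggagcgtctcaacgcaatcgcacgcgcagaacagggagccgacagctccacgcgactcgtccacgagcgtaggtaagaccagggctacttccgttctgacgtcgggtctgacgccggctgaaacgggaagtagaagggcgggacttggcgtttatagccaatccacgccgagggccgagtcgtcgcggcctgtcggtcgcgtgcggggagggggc

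Complex I, the largest complex, takes electrons from NADH. Of its 35 member genes 33 were measured, and 19 were higher and 14 lower in DNR Tregs, with a median log2 ratio of 0.02. The 6 core subunits with a member probe set carry the flavin and the iron-sulphur clusters or the ubiquinone site. They were 2 higher and 4 lower with a median of -0.05, all within 1.12-fold, and with the median over probe sets 4 of the 6 were higher. Ndufs1, which holds several iron-sulphur clusters, had a signal of 2580 on the DNR and 2569 on the WT array. Ndufv1, the flavin-bearing subunit that oxidises NADH, had 3011 against 3238, while its other probe sets had log2 ratios of 0.06 and 0.09. Ndufv2 had 6723 against 7068, while another of its probe sets went the other way with 5192 against 4171 (0.32). Ndufs3 had 4524 against 4626. Ndufs8 had 7448 against 6655, but its 6 probe sets ran from -0.49 to 0.44. Ndufs7 had 5408 against 5717, with its second probe set at 0.21. None of the 6 was past the spread between probe sets.

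The accessory subunits of complex I surround this core and are needed for its assembly and stability. Those named Ndufb and Ndufc, which lie mostly in the membrane arm, were higher for 10 of 12 measured genes, beside 51.4% of all measured genes. Their median was 0.11, with a range from -0.20 to 0.43. With the median over probe sets 8 were higher and 4 lower, with a median of 0.07. Ndufb6 was highest, with 5920 on the DNR and 4396 on the WT array, and its second probe set was at 0.16. Ndufb11 had 19244 against 17458, and its 3 probe sets were all higher (0.04 to 0.32). Ndufb10 had 4636 against 3952, and Ndufb1 had 286 against 232. Ndufb3 (3444 against 3944) and Ndufb5 (5711 against 5797) were the 2 lower ones. Of those named Ndufa 12 were measured, 6 higher and 6 lower, with a median of 0.0027. Among them Ndufa13, also known as GRIM-19, had 15293 on the DNR and 11153 on the WT array, a 1.37-fold difference on its only probe set. Ndufa6 had 5443 against 7355 and was 1.35-fold lower, also on 1 probe set. Ndufa5 had 2747 against 2161, with a second probe set at 0.04, and Ndufa8 had 5885 against 4662. Ndufa7 had 7572 against 6629 (0.19), with its probe sets between -0.17 and 0.51. Ndufa3 had 9687 against 10640 (-0.14), while a probe set of similar brightness went the other way with 9683 against 7995 (0.28). Ndufa1, which belongs to the membrane arm, had 15230 against 14795. Ndufa4, which is now known as a subunit of complex IV, had 7067 against 7758 and was lower, unlike the widely expressed Cox subunits below.

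Ndufv3, an accessory subunit next to the flavin site, stood apart from the rest of complex I. It had a signal of 11943 on the DNR and 6990 on the WT array, a log2 ratio of 0.77 or 1.71-fold, on a single probe set, so no second probe set checks it. The other accessory Ndufs subunits were close to equal. Ndufs4 had 2498 against 2527, while 2 of its 3 dimmer probe sets were at 0.47 and 0.55, and Ndufs5 had 1868 against 2045. The ratio of Ndufv3 ran from 0.76 to 0.80 over 8 alternative settings. Only median centring, quantile normalization and lowess could move it, since the gene is bright and has a single probe set.

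**Figure D2:**
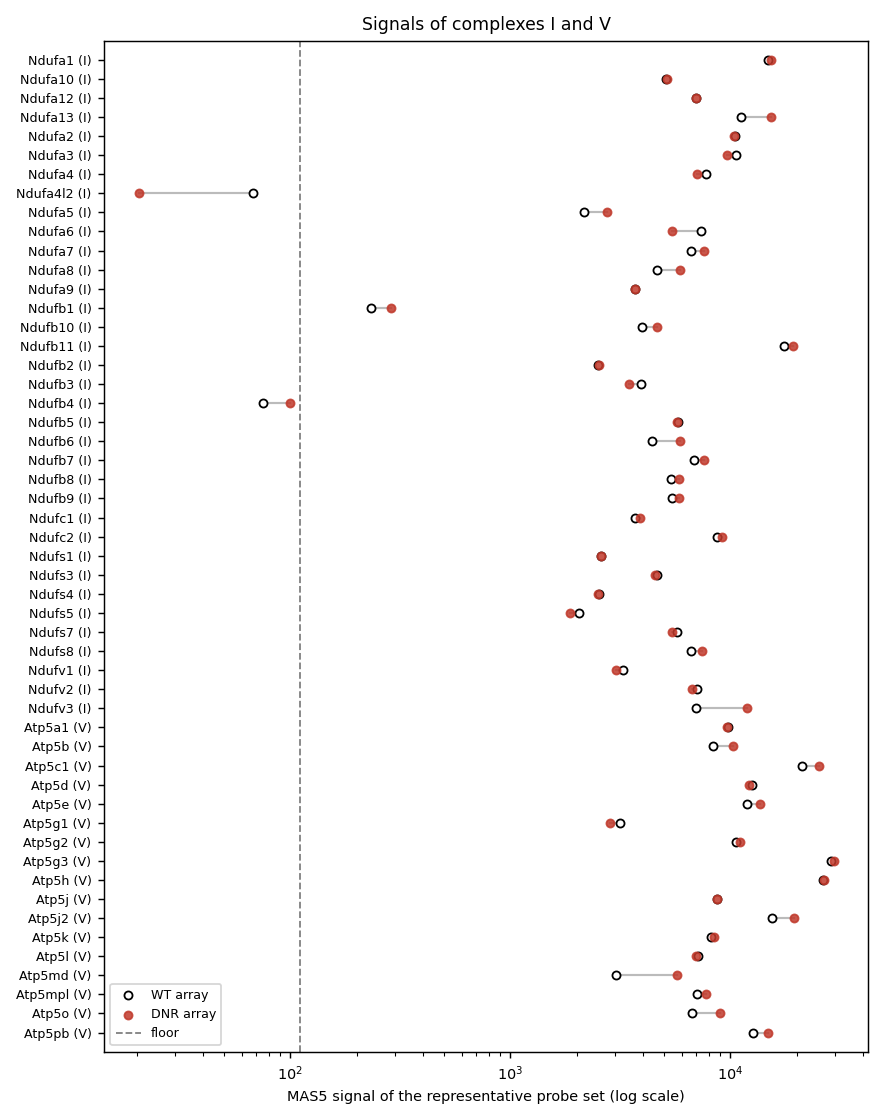
MAS5 signal (log axis) of the representative probe set of each complex I and complex V gene on the WT array (open circles) and the DNR array (red), with the floor of 110.9 dashed. Most pairs nearly coincide, while Ndufv3 (11943 against 6990) and Atp5md (5691 against 3036) are set apart.

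Complex II is the only complex whose subunits are all encoded in the nucleus, and it links the citric acid cycle to the respiratory chain. By the brightest probe set all 4 of its genes had a lower signal in DNR Tregs, with a median of -0.29 or 1.23-fold, but by the median over probe sets only 2 of the 4 did. By the brightest, 3 of the 4 were past the spread between probe sets. Sdhd, a membrane anchor, had a signal of 1791 on the DNR and 2370 on the WT array (-0.40), and its second probe set was lower too (-0.24). Sdha, the flavoprotein that oxidises succinate and whose promoter stretch holds the NRF1 motif 3 times, had 4595 against 5818 (-0.34). Its other usable probe sets were at -0.08 and 0.14. Sdhb, the iron-sulphur subunit, had 8210 against 8372 (-0.03). Sdhc, the other anchor, had 893 against 1061 (-0.25), but its second probe set had 784 against 366, a log2 ratio of 1.10 in the opposite direction and the only usable member probe set that was at least 2-fold higher. With a gene's median over its measured probe sets, 2 of the 4 lay above 0 and 2 below, with a complex median of 2.57e-05. Of those above 0, Sdhc was so through its second probe set. Sdha was so through dim probe sets, at 142 against 129 and at 143 against 4.12, the latter under the floor on the WT array. The sign of Sdha and Sdhc thus depends on the choice of probe set, for Sdha on signals near the floor. With median centring Sdhb was just above 0 and the other 3 stayed below.

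Complex III passes electrons from ubiquinol to cytochrome c. Of its 9 genes 7 were higher in DNR Tregs and 2 lower, with a median of 0.12, but with the median over probe sets 5 were higher and 4 lower. The redox subunits were close to equal: Cyc1, cytochrome c1, had 5414 on the DNR and 4967 on the WT array. Uqcrfs1, the Rieske iron-sulphur protein, had 4421 against 4422. The core proteins Uqcrc1 (3969 against 3568) and Uqcrc2 (16366 against 15575) differed by at most 1.11-fold. Among the small subunits Uqcrb, which lies near the ubiquinone site, had 42577 against 34228 (0.31), and its second probe set was at 0.34. Uqcr11 had 4169 against 3332 (0.32). Uqcr10 had 3393 against 3164, with its dimmer probe sets at -0.50 and -0.09, and Uqcrq had 3934 against 3534. Uqcrh, the acidic hinge protein that helps to dock cytochrome c, went the other way, with 13287 against 16714 (-0.33), and its second probe set was at -0.37. Uqcrb and Uqcrh thus lay on opposite sides of 0 within 1 complex, each by both of its probe sets and each past the spread of 0.228.

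Cytochrome c itself, encoded by Cycs, carries electrons from complex III to complex IV and is known for starting the caspase cascade when it leaves mitochondria. Its signal was 22461 on the DNR and 17045 on the WT array, a log2 ratio of 0.40 or 1.32-fold. The other 2 probe sets above the floor were at 0.19 and 0.41, so all 3 were higher.

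Complex IV transfers electrons to oxygen, and its nuclear subunits surround a core encoded in mitochondrial DNA. Of its 17 member genes 13 were measured, 10 higher and 3 lower in DNR Tregs, with a median of 0.24. Under quantile normalization 15 were measured, 8 higher and 7 lower. Cox7b has no member probe set. The 9 widely expressed subunits with a member probe set were Cox4i1, Cox5a, Cox5b, Cox6a1, Cox6b1, Cox6c, Cox7a2, Cox7c and Cox8a. All 9 were higher in DNR Tregs, except that 2 were lower under quantile normalization. Their median was 0.26, a 1.2-fold difference, and they ranged from 0.05 to 0.51. Cox5a had a signal of 25300 on the DNR and 17818 on the WT array (0.51), and its other probe sets were at 0.87 and 0.14. Cox7a2 had 22114 against 17596 (0.33) with a second probe set at 0.35. Cox6a1 had 46894 against 40034 (0.23), with a second probe set at 0.01. Cox5b had 26938 against 22407 (0.27), and 3 of its 4 other probe sets above the floor were higher and 1 lower (-0.53, at a signal of 357 against 514). Cox6b1 had 23811 against 19863, with a second probe set at 0.10, and Cox7c had 2152 against 1764, with a second at 0.62. Cox8a had 5273 against 4476, but its second usable probe set was lower, with 3839 against 4045 (-0.08). Cox4i1, the largest nuclear subunit, had 19102 against 18092 (0.08), and Cox6c had 14934 against 14467 (0.05). Each difference was under 1.5-fold. Past the spread between probe sets were 7 of the 9, beside 18.9% higher among the 4067 genes above 1000 on both arrays. Cox6a1, at 0.2282, barely passed the spread of 0.2281, and Cox8a was at 0.236. Under quantile normalization, under lowess and with the median over probe sets 4 of the 9 were past it.

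Cox7a2l, also known as the supercomplex factor SCAF1, was taken in by its symbol and went the other way. It had 11351 on the DNR and 14595 on the WT array (-0.36 or 1.29-fold lower), and its other probe sets were at -0.25 and -0.84, so all 3 were lower. It was lower in every one of the 8 alternative settings, from -0.41 to -0.33, though those that change the floor could not move it.

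The isoforms of complex IV subunits known from muscle, lung or testis were at or near the floor. Cox6b2, Cox7a1, Cox7b2 and Cox8b were under the floor on both arrays. Cox4i2, the hypoxia-inducible partner of Cox4i1, had 191 on the DNR and 101 on the WT array, under the floor there, so that its ratio is a bound of at least 1.72-fold higher. At a floor of the 60th percentile Cox4i2 had a log2 ratio of 0.19. Cox6a2, the heart and muscle partner of Cox6a1, had 112 on the DNR and 312 on the WT array, 2.80-fold lower; its DNR signal is just above the floor and its second probe set was under the floor on both arrays. Cox6a2 was the only member at least 2-fold different. Cox8c, a testis isoform, had 229 against 240. The widely expressed partners were far above the floor on both arrays.

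**Figure D3:**
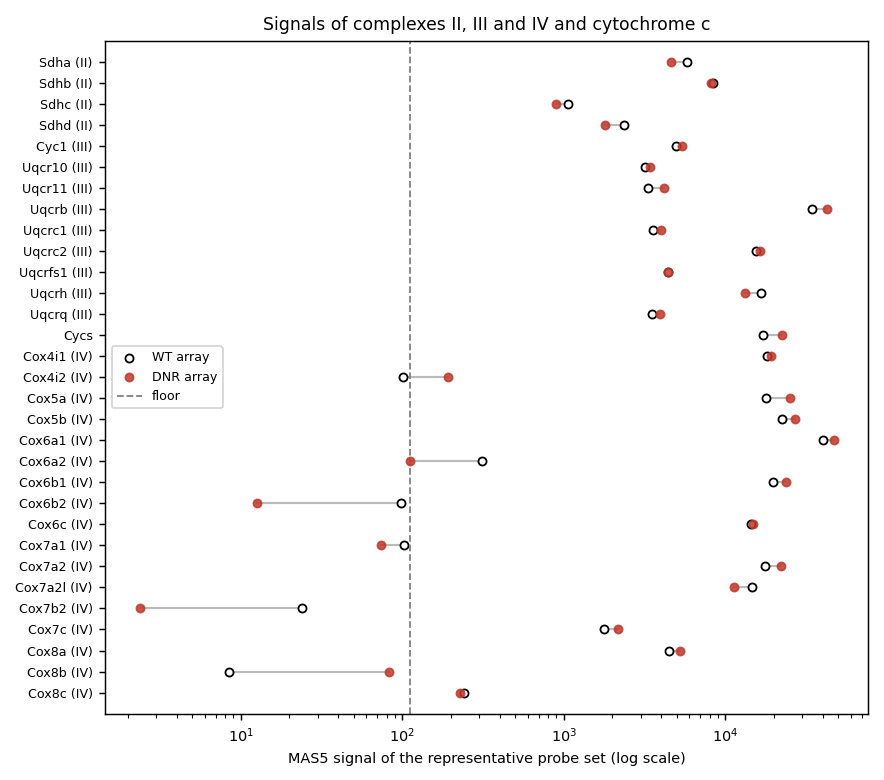
MAS5 signal (log axis) of the representative probe set of each gene of complexes II, III and IV and of Cycs on the WT array (open circles) and the DNR array (red), with the floor of 110.9 dashed. On these deposited values the 9 widely expressed Cox subunits lie to the right on the DNR array (7 of 9 under quantile normalization), Cox7a2l, Uqcrh and the 4 Sdh genes lie to the left, and the tissue isoforms lie near or under the floor.

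Complex V makes ATP as protons turn its membrane ring. Of its 17 member genes, 12 were higher in DNR Tregs and 5 lower, with a median of 0.06. Of the F1 head, Atp5b, the catalytic beta subunit, had a signal of 10320 on the DNR and 8354 on the WT array (0.30). Atp5a1, the alpha subunit, had 9676 against 9703, with its other probe sets at 0.16 and 0.29. Atp5c1, the central gamma subunit, had 25308 against 21057 (0.27), while its dim second probe set had 161 against 301 (-0.90). Atp5d had 12165 against 12477 and Atp5e had 13702 against 11936. By the brightest probe set the alpha and beta subunits, which stand in equal number in the enzyme, lay at equal and at 1.24-fold higher signal. The other alpha probe sets, at 0.16 and 0.29, were higher like Atp5b, which has a single probe set, so this contrast depends on the choice of probe set.

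The c ring is encoded by 3 genes whose mature products are identical, and they were close to equal between the arrays. Atp5g1 had 2842 on the DNR and 3162 on the WT array (-0.15), Atp5g2 had 11042 against 10607 (0.06) and Atp5g3 had 29472 against 28632 (0.04). None of the 3 was past the spread, and under quantile normalization and lowess 1 was higher and 2 lower.

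The stalk and membrane subunits of complex V were higher for 7 of 9 genes. Atp5o, which anchors the head to the stalk, had 8928 on the DNR and 6720 on the WT array (0.41), and its second probe set was at 0.36. Atp5j2 had 19455 against 15464 (0.33), with other probe sets at 0.25 and, at a signal of 186 against 348, at -0.90. Atp5pb had 14812 against 12636 (0.23), but its second probe set was at -0.22. Atp5h (26619 against 26438), Atp5j (8677 against 8679), Atp5k (8416 against 8170) and Atp5l (6976 against 7103) differed by at most 1.03-fold. Atp5mpl, a small proteolipid of the enzyme, had 7760 against 7030. Atp5md, also known as Usmg5 or DAPIT, a small membrane subunit needed to keep the synthase in its dimeric form, had 5691 against 3036. That is a log2 ratio of 0.91 or 1.87-fold, the highest of all members, on a single probe set. It ran from 0.91 to 0.95 over the 8 alternative settings, of which only median centring, quantile normalization and lowess could move it.

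Probe sets of the same gene often disagreed in direction. Of the 42 genes with 2 or more usable probe sets, 16 had all of them higher in DNR Tregs, 5 had all lower and 21 were mixed. In complex IV 6 of 9 such genes were higher by all their probe sets, namely Cox5a, Cox6a1, Cox6b1, Cox6c, Cox7a2 and Cox7c, and Cox7a2l was lower by all. In complex I it was 6 of 17 higher, 1 lower and 10 mixed, and in complex V 2 of 8 higher, 1 lower and 5 mixed. The 5 genes lower by all probe sets were Ndufb5, Sdhd, Uqcrh, Cox7a2l and Atp5d. Among 3968 genes of the whole array with 2 or more such probe sets, 2151 were mixed. With only probe sets above 1000 on both arrays, 485 of 1098 genes were mixed. The shares with all probe sets higher, or all lower, were not computed over the whole array.

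**Figure D4:**
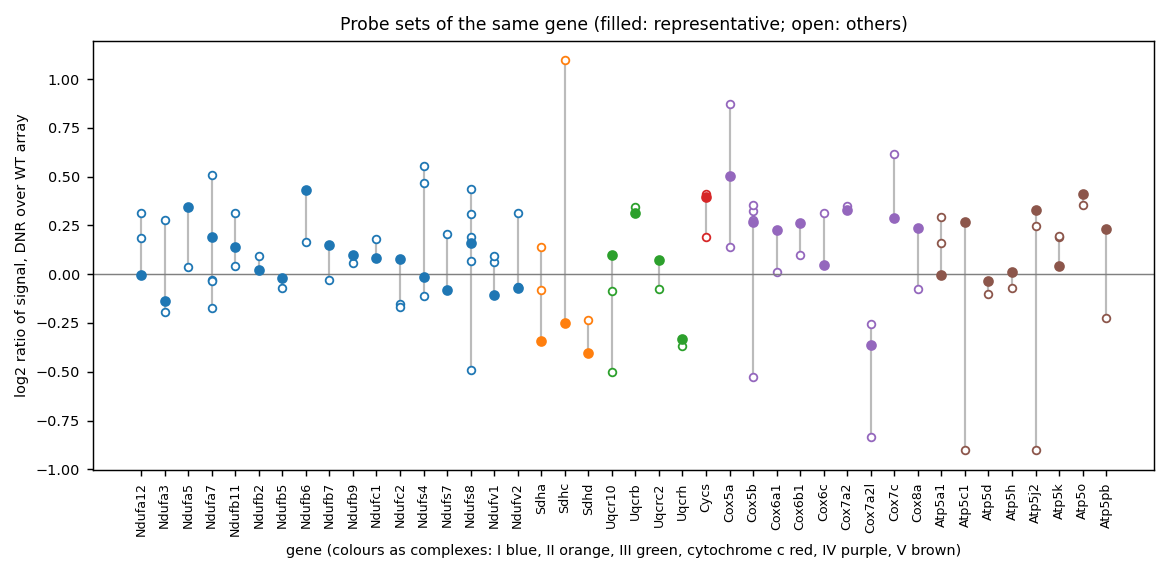
Log2 ratio of the DNR over the WT signal for every probe set above the floor on each array, for the 42 member genes with at least 2 of them; filled points are the representative probe sets and open points the others. Cycs, Cox5a, Cox7a2 and Uqcrb lie above 0 with all probe sets and Cox7a2l, Uqcrh and Sdhd below 0, while Sdhc, Atp5c1 and Atp5j2 span more than 1 log2 unit.

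Other genes of the pathway were set beside the subunits. The mitochondrially encoded ND5, the only such gene with a named probe set, had 20006 on the DNR and 26444 on the WT array, 1.32-fold lower (-0.40). Of 42 measured assembly factors 23 were higher and 19 lower, with a median of 0.08; 1 was at least 2-fold higher and 4 at least 2-fold lower, beside 4% and 2.93% of all measured genes. Timmdc1, which assembles complex I, had 387 against 180. The 4 lower ones were the complex II factor Sdhaf3 (121 against 371), Coa7 (201 against 485), Cox18 (565 against 1197) and Cox19 (427 against 866), the last 3 being factors of complex IV. The copper chaperone Cox17 had 7958 against 5908 (0.43) and Cox20 had 6335 against 5074. The factors that were at least 2-fold different had signals between 121 and 565 in DNR Tregs.

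Of 16 measured genes of the citric acid cycle and pyruvate dehydrogenase, 6 were higher and 10 lower, with a median of -0.04 and none past 1.5-fold in either direction. Mdh2, a malate dehydrogenase, had 21130 on the DNR and 21527 on the WT array, and Cs, citrate synthase, had 7696 against 6963. Of 16 carriers and import genes the median was 0.01. Slc25a3, the phosphate carrier that supplies the ATP synthase, had 29473 on the DNR and 27239 on the WT array. Tomm20, an import receptor of the outer membrane, had 27864 against 27618, and Hspe1, the mitochondrial co-chaperonin, had 6168 against 9252, just past 1.5-fold lower. The 76 mitochondrial ribosomal protein genes had a median of 0.06, with 45 higher and 31 lower; 0 were at least 2-fold higher and 2 at least 2-fold lower, Mrps5 (288 against 760) and Mrps28 (735 against 1473). The brightest, Mrpl52 and Mrpl24, had 11796 against 10312 and 5526 against 5186. The 17 regulators of mitochondrial biogenesis, 16 of them above the floor on both arrays, had a median of -0.09 and none past 1.5-fold. Nrf1, whose product binds the NRF1 motif, had 811 against 862, Yy1 had 8885 against 9666, Mterf3 had 2729 against 2734, and Tfam, which packages and transcribes mitochondrial DNA, had 2307 against 2099. Ppargc1a, the coactivator PGC-1alpha, had 123 on the DNR array and was under the floor on the WT array. Esrra had 420 against 596, lower by 0.51.

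**Figure D5:**
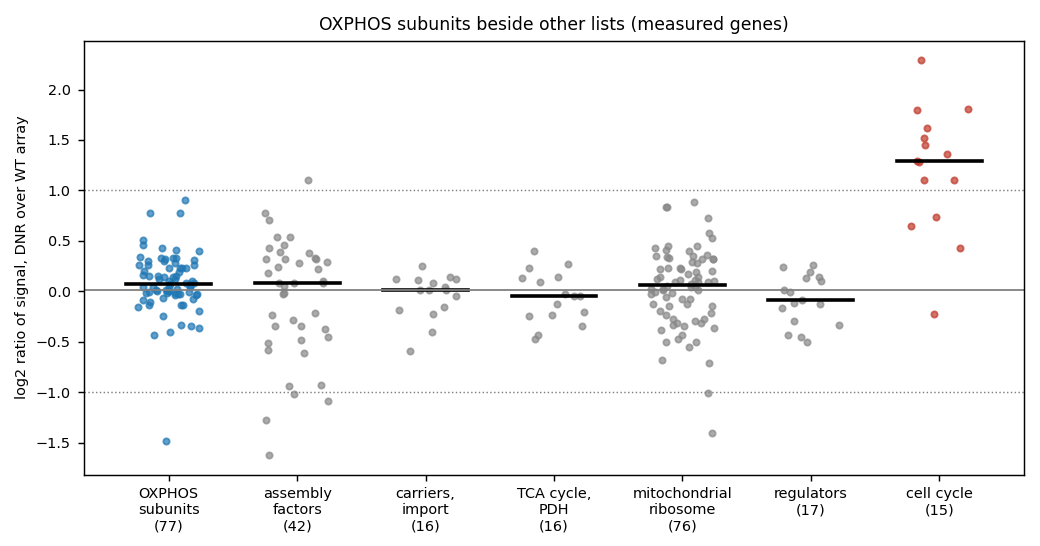
Log2 ratio of the DNR over the WT signal of measured genes in the subunit list and in 6 other lists (number of genes in parentheses), with list medians as black bars, the median of all measured genes as a grey line and 2-fold as dotted lines. The subunits, median 0.08, run from -1.48 (Cox6a2) to 0.91 (Atp5md), while cell cycle genes have a median of 1.29.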

How the data were processed

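RNA of 1 DNR and 1 WT sample was hybridised to Affymetrix mouse arrays. The authors deposited linear signal intensities, 1 per probe set; MAS5 is named in the submitters' processing notes, without a version. Each array's 2% trimmed mean was 500.0, so the values had been scaled, background included. Of 45101 probe sets, 64 controls were set aside. The annotation gave exactly 1 gene to 34945 of the 45037 others, several to 932 and none to 9160, and 0 member symbols differed from the current symbol of their Entrez identifier. No build is named for the arrays; promoter windows are from RefSeq, GRCm38.p6.

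The floor, ratios and medians were computed with Python 3.11.15, pandas 2.3.3 and NumPy 2.4.6, and the lowess (span 0.3) with statsmodels 0.14.6; the procedure was tested on simulated data. All member genes may be named, since the rule uses symbols only. Signals are given in full for genes at least 1.5-fold different, the 2 brightest and the highest and lowest ratio of each complex, complex II, Cycs, the c ring, the isoform pairs and genes whose probe sets differ in sign by at least 0.36, and others were added after their values were seen. Of the other lists, members at least 2-fold different and the 2 brightest are named, and a few more chosen after their values were seen. The members, lists and thresholds were chosen with earlier results of these data known. The number of arrays limits the precision.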

Additional observations from a re-analysis of the deposited data

How the results depend on the processing

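The median log2 ratio of the members ran from 0.05 to 0.11 over the 8 planned settings, while that of all measured genes ran from -0.01 to 0.04, and the members' median was above that of all genes in each by 0.04 to 0.09. Over all usable member probe sets, an alternative chosen after seeing the data like the split by signal range and the counts past the spread by setting, it was 0.08. Of bright members past the spread, 16 to 23 were higher over the settings and 5 to 7 lower. Without a floor 1 member was at least 2-fold higher and 4 lower, and 4 were at least 1.5-fold lower. With the floor at the 60th percentile, or at a 3-fold threshold, 0 were lower. At 1.5-fold 3 were higher, and at 1.2-fold 19 were higher and 6 lower, beside 29% and 25.8% of all measured genes. Without probe sets ending in _s_at or _x_at 2 were at least 1.5-fold lower. With the median over probe sets complex II had a median of 2.57e-05, assembly factors -0.057 and regulators 0.028. Cox4i2 was under 1.5-fold at the higher floor. Ndufv3, Cox6a2 and Atp5md stayed at least 1.5-fold different in all 8. For Ndufv3 and Atp5md, bright and with a single probe set, only median centring, quantile normalization and lowess could change the ratio. The number of members above 0 was 47 of 79 with quantile normalization, 54 of 77 with lowess and 59 of 77 with median centring. No paired analysis was possible because there was 1 array per group. Detection calls and scanner values were not used here, so signals near the floor are uncertain.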
